A study of Rattus norvegicus with 3 samples.

Results

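The natural killer-like nuclei of the rat heart made up 348 of the 24664 nuclei measured. They numbered 171 of 9964 in the WT library, 77 of 6810 in the BMD library and 100 of 7890 in the DMD library. Single nuclei were sorted from the heart apex of 12-month-old rats, an apex that held part of the septum and of both ventricles. Each genotype gave 1 library, and the number of animals behind a library was not given in the sources used here. The WT rats carried an intact Dmd gene, which encodes dystrophin. The BMD rats, a model of Becker muscular dystrophy, carried an in-frame deletion of Dmd exons that was made in Sprague Dawley oocytes. The DMD rats, a model of Duchenne muscular dystrophy, carried a Dmd deletion that shifts the reading frame. Sprague Dawley is an outbred stock, so the animals behind the libraries can also differ at other loci, and a difference between genotypes cannot be told apart from a difference between animals. With 1 library per genotype there was no test between genotypes, and no p-value is given. Intervals are at 95% and cover counting error only, and unique molecular identifiers (UMIs) of the same nucleus are not independent of each other.

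A nucleus was chosen when it held at least 3 UMIs of Klrd1, Tbx21, Nkg7, Ly49s6 and Clnk together, and at least as many of these as of the T cell genes Cd3e, Cd3g, Themis and Camk4. Its cardiomyocyte genes Actn2, Rbm20, Cmya5 and Mlip had to stay under 0.4% of its UMIs, and it could hold at most 1 UMI each of a fibroblast, an endothelial and a macrophage set. The members were thus chosen by the measured levels of these genes, which are given as a description. The members held few UMIs per nucleus, with a median of 809 in WT, 889 in BMD and 834.5 in DMD, against 1212.5, 1486.5 and 1229 over all nuclei. Their summed UMIs came to 158767 in WT, 93635 in BMD and 97952 in DMD. WT members therefore had the finest resolution and BMD members the coarsest. Of the barcodes of all nuclei, WT shared 20 with BMD and 12 with DMD, and BMD shared 12 with DMD, whereas 0 members shared a barcode in any pair. The libraries held 21609238, 21142346 and 19215994 UMIs in WT, BMD and DMD. The WT counts came from the authors' aggregate of several libraries, in which depth had been equalised, whereas BMD and DMD were read from the files of each library. The file headers name Cell Ranger 6.0.1 for the aggregate and Cell Ranger 4 for BMD and DMD, and the version that counted the WT reads is not given in the sources used here. A difference between counting versions could not be told apart from genotype, which bears on every ratio to WT and above all on genes as similar as the Ly49 genes.

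Natural killer cells are innate lymphocytes that kill infected or altered cells by releasing perforin and granzymes, without the rearranged antigen receptors of T cells. They read target cells through germline-encoded receptors, among which the lectin-like families Ly49, NKR-P1 (Klrb1 genes) and CD94/NKG2 (Klrd1 with Klrc genes) are encoded in a gene complex on rat chromosome 4. The Ly49 genes are numerous and similar to each other, and they are known to vary between rat strains. In rats, Ly49 receptors and the inhibitory receptor encoded by Klrb1b are known to mark largely separate subsets of natural killer cells.

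The Ly49 genes are shown by their promoters, since Ly49s5 was the gene lowest against WT in BMD and the family shares sequence. The stretches run from 250 bases before to 50 bases after the annotated start, come from RefSeq on build GRCr8 and lie on the minus strand of chromosome 4. The counts themselves were made on build rn6. Of 15 genes looked up, 11 were in the promoter table, and Klrd1, Ccl5, Ncr1 and Styk1 were not. Capitals mark the longest run that each promoter shares with Ly49s6, and in Ly49s6 the run shared with Ly49s5. The promoters lie at chr4:165790021-165790320 for Ly49s6, chr4:165645467-165645766 for Ly49s5 and chr4:165873557-165873856 for Ly49i4.
Ly49s6: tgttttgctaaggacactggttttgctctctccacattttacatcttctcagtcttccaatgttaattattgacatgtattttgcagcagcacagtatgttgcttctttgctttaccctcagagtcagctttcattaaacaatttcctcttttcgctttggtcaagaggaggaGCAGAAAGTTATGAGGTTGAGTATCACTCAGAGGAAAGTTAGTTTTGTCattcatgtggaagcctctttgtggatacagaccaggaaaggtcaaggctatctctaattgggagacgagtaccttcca
Ly49s5: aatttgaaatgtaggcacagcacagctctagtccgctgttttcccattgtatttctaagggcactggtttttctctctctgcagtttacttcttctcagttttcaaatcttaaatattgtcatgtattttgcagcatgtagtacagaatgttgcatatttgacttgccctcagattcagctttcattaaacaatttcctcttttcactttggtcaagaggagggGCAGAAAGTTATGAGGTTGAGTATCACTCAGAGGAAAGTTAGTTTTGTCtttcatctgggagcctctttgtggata
Ly49i4: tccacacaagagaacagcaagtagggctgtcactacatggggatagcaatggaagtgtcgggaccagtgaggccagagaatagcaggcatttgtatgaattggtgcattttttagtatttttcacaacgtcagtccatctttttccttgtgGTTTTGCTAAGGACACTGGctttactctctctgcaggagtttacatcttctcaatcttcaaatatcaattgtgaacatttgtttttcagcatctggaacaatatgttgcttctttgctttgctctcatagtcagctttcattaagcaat
Ly49s6 and Ly49s5 shared a run of 49 bases, which was found in 2 of 33469 promoters in the table, these 2 genes. Slid against each other without gaps, they were identical at 67.9% of the 249 bases that overlapped. Ly49s6 and Ly49i4 shared a run of 19 bases. The promoter of Klrb1b shared no run longer than 8 bases with that of Ly49s6. Most of each stretch lies before the annotated start, so the likeness of the promoters does not show how alike the transcripts were. How the authors' counting divided reads among the genes of this family was not tested, so the sum over the family is given beside each of its genes.

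The members carried natural killer cell genes that the rule did not use. Levels are given as counts per 1000000 UMIs (CPM), summed over the members of a library. Prf1, which encodes perforin, had 800 CPM in WT, 555 in BMD and 1041 in DMD, whereas over all other nuclei it had 6.82, 2.42 and 7.54 CPM. Klri1, a lectin-like receptor of natural killer cells, had 894, 1228 and 1092 CPM, and in the T cell-like nuclei 33.6, 13 and 58.7 CPM. Ncr1, which encodes the activating receptor NKp46, had 384, 331 and 419 CPM against 2.76, 1.14 and 3.95 CPM over all other nuclei. All of these stood far above the other nuclei in every library. T cell-like nuclei, the most similar population, were those with at least 3 UMIs of the T cell genes above and more of these than of the natural killer cell genes, and numbered 69 in WT, 78 in BMD and 71 in DMD. The rule itself set the populations apart, so their difference is a description. At least 1 UMI of 10 natural killer cell genes outside the rule (Prf1, Ccl5, Ncr1, Klri1, Klrb1b, Klrc2, Il2rb, Gzmk, Gzma and Klrk1) was found in 166 of 171 members in WT, 72 of 77 in BMD and 96 of 100 in DMD.

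**Figure D1:**
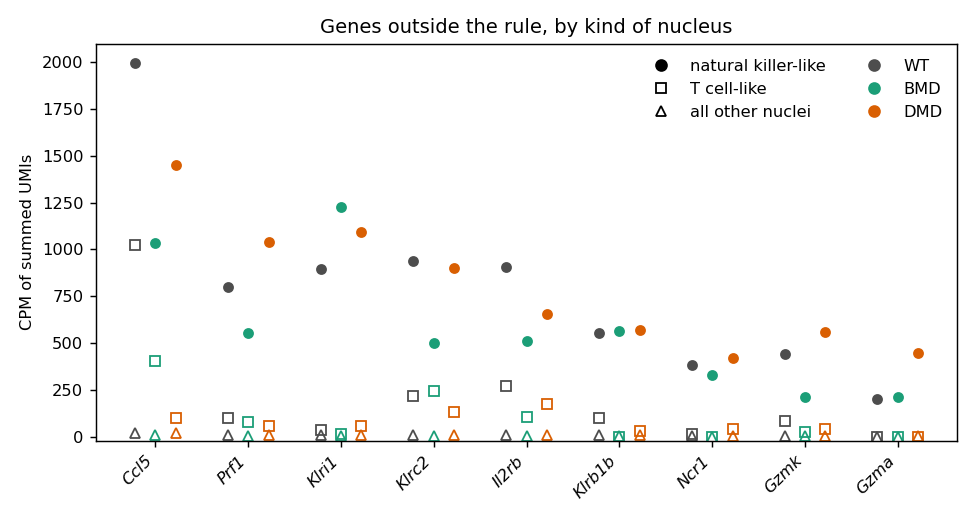
CPM of summed UMIs (linear axis) for 9 natural killer cell genes that the rule did not use, in natural killer-like nuclei (filled circles), T cell-like nuclei (open squares) and all other nuclei (open triangles) of each library, with no error drawn. Filled circles lie above the squares and triangles of the same library for each gene, and the highest square is Ccl5 in WT, at 1024 CPM.

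Ranked by the lowest of the 3 libraries' ratios to all other nuclei, the 15 leading genes outside the rule were Skap1, Ccl5, Klri1, Ikzf3, Atp8b4, Ptprc, Ikzf1, Chn2, Prf1, Arhgap15, Klrb1b, Klrc2, Il2rb, Fyb1 and 1 gene without a symbol. Skap1, an adaptor in lymphocyte adhesion, had 2589 CPM in WT, 2008 in BMD and 2266 in DMD, with more in T cell-like nuclei, at 3644, 4557 and 4817 CPM. Ptprc, which encodes the leukocyte marker CD45, had 4749, 4475 and 3726 CPM, again less than in T cell-like nuclei. Chn2, which encodes a Rac-inactivating chimaerin, went the other way, with 3502, 2424 and 2409 CPM in members and 890, 753 and 367 CPM in T cell-like nuclei. The chemokine gene Ccl5 had 1997, 1036 and 1450 CPM, and 1024, 403 and 103 CPM in T cell-like nuclei.

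The receptor list held 31 genes outside the rule in the files, of which 17 had at least 20 UMIs in members and T cell-like nuclei together, and 15 of these 17 were higher in the members in all 3 libraries. Of the 8 counted T cell genes outside the rule, 0 were. Members with any UMI of the 4 T cell genes of the rule numbered 68, 25 and 35, and most of these UMIs were of Camk4, a calcium-dependent kinase, with 120, 26 and 45 UMIs. Cd3e, a chain of the T cell receptor complex, had 8, 5 and 2 UMIs, which is 50.4, 53.4 and 20.4 CPM, against 369, 415 and 352 CPM in T cell-like nuclei. The master regulators of natural killer cells were unevenly seen, since Tbx21 was part of the rule and had 957, 1153 and 1011 CPM, whereas Eomes had 4, 3 and 2 UMIs.

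A minority of members did not carry the natural killer cell genes as the others did. These 15 members in WT, 15 in BMD and 11 in DMD had no UMI of Klrd1, Tbx21, Nkg7 or Ly49s6 and entered by Clnk alone, which encodes a signalling adaptor. They made up 8.77%, 19.5% and 11% of the members. Genes of dendritic cells, which present antigen to T cells, stood high in them. The sum of Flt3, Xcr1, Clec9a, Cd74, RT1-Da and RT1-Db1 was 9255 CPM in WT, 5841 in BMD and 5426 in DMD, whereas the other members had 57.6, 1031 and 239 CPM. At least 3 UMIs of these 6 genes were found in 8, 10 and 7 of the Clnk-only members and in 0, 3 and 2 of the others. Flt3, a growth factor receptor of dendritic cells and their precursors, had 17, 41 and 18 UMIs in the Clnk-only members and 0, 0 and 2 in the others. The 10 natural killer cell genes had 2023, 2321 and 1140 CPM in the Clnk-only members and 8216, 6799 and 8953 CPM in the others. The label thus held less well for these 41 nuclei as a group, although not all of them carried dendritic cell genes, and results are also given without them, a choice made after the data were seen.

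**Figure D2:**
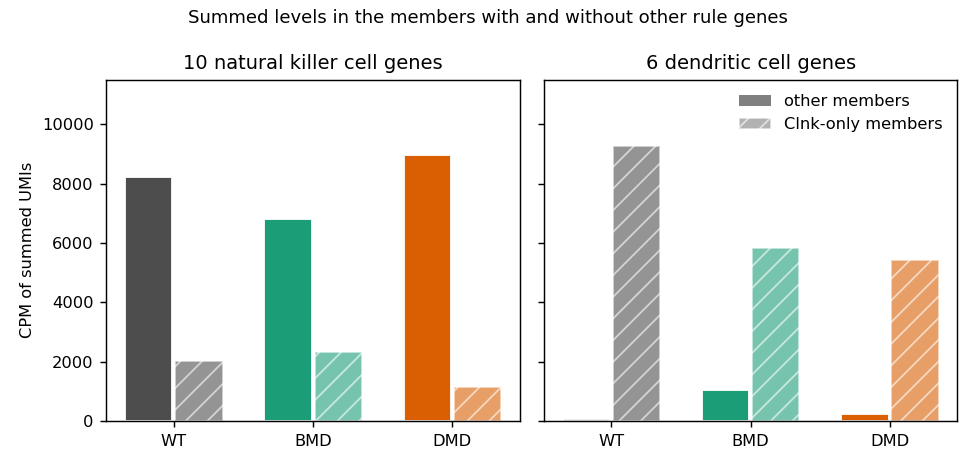
Summed CPM (linear axis from 0) of 10 natural killer cell genes outside the rule (left) and of 6 dendritic cell genes (right) in each library, for members with a UMI of Klrd1, Tbx21, Nkg7 or Ly49s6 (plain bars) and for Clnk-only members (hatched bars), with no error drawn. The plain bars are higher on the left and the hatched bars on the right in all 3 libraries.

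The rule itself limited some genes of other cell types, and 8 of 10 macrophage, 4 of 7 fibroblast, 4 of 7 endothelial and 7 of 11 cardiomyocyte genes lay outside it. Low sums of these 4 lists were therefore set in part by the choice of members. The macrophage list had 13, 24 and 6 UMIs in WT, BMD and DMD over all members, of which Csf1r had 2, 8 and 2. Of the mast cell list only Kit was seen, with 10, 29 and 5 UMIs, and Cpa3, Ms4a2, Mcpt1l1 and Hdc were at 0. The cardiomyocyte list had 1360, 2328 and 1756 CPM, led by Ryr2, against 16705, 19317 and 12938 CPM in the other nuclei. Of the 8 B cell genes, Cd79b and Jchain were at 0 in all 3 libraries and the list summed to 384, 502 and 909 CPM. Its most counted gene was Bank1 in WT, with 233 CPM, and Ebf1 in the mutants, with 374 CPM in BMD and 572 in DMD. Fibroblast genes summed to 573, 598 and 1235 CPM, endothelial genes to 81.9, 96.1 and 235 CPM, pericyte and smooth muscle genes to 283, 438 and 939 CPM, and Schwann cell genes to 18.9, 0 and 0 CPM. These lists were highest in DMD for the first 3. Monocyte and neutrophil genes summed to 699, 1079 and 1021 CPM, led by Itgam in WT and DMD, an integrin that natural killer cells also carry. Scrublet, a doublet caller, called 2.34% of members in WT, 2.60% in BMD and 4% in DMD, below the 8.01%, 5.10% and 10.4% of all nuclei.

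At the edge of the rule, 23 members in WT, 16 in BMD and 17 in DMD held exactly 3 UMIs of the 5 genes. Just outside, 28, 18 and 17 nuclei that met the other limits held exactly 2. The 10 natural killer cell genes had 5984, 2516 and 4654 CPM in the nuclei with exactly 3 and 4824, 2519 and 3725 CPM in those with exactly 2. The nuclei on both sides of the limit thus carried these genes at close levels, below the 7445, 5521 and 7483 CPM of all members. A further 62, 24 and 62 nuclei with enough of the 5 genes failed a limit on another cell type.

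The share of natural killer-like nuclei was highest in WT, and the interval of the gap held 0 under some other choices of nuclei. The share was 1.72% in WT (Clopper-Pearson interval 1.47% to 1.99%), 1.13% (0.893% to 1.41%) in BMD and 1.27% (1.03% to 1.54%) in DMD. Against WT this was -0.585 percentage points (Newcombe interval -0.940 to -0.219) in BMD and -0.449 points (-0.803 to -0.0882) in DMD. Without the Clnk-only members the shares were 1.57%, 0.910% and 1.13%. Members with over 5% mitochondrial UMIs numbered 61 of 171 in WT, 9 of 77 in BMD and 24 of 100 in DMD, which is 35.7%, 11.7% and 24.0%, against 11.4%, 11% and 16.9% of all nuclei. With all such nuclei removed the shares were 1.25%, 1.12% and 1.16%, and the difference from WT was -0.123 points (-0.469 to 0.242) in BMD and -0.0857 points (-0.429 to 0.272) in DMD. The intervals of both differences then held 0. They also held 0 when members were allowed no T cell UMI, at -0.270 points (-0.554 to 0.0273) in BMD and -0.210 points (-0.491 to 0.0784) in DMD. Among nuclei with at least 1000 UMIs the difference was -0.377 points (-0.700 to -0.0492) in BMD and -0.282 points (-0.614 to 0.0571) in DMD. The members over 5% mitochondrial UMIs carried the 10 natural killer cell genes at 8230 CPM in WT, 6715 in BMD and 8731 in DMD. This was above the 6969, 5340 and 7075 CPM of the other members.

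**Figure D3:**
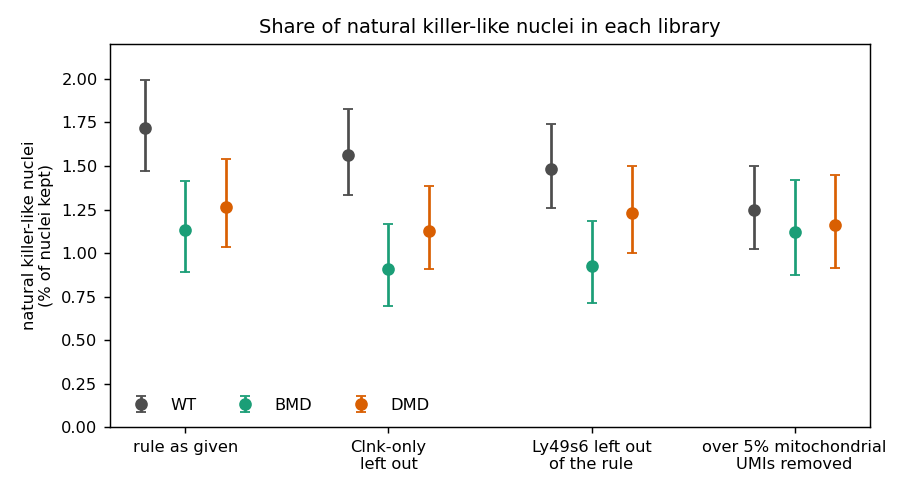
Natural killer-like nuclei as a percentage of the nuclei kept (y axis from 0) in the WT, BMD and DMD library, with bars for the 95% Clopper-Pearson interval, under the rule as given and under 3 other choices. WT is highest under each choice, at 1.72% against 1.13% and 1.27% under the rule as given, and the 3 points lie between 1.12% and 1.25% once nuclei over 5% mitochondrial UMIs are removed.

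Ly49s6 stood in the rule and was more abundant in WT, so the share was also taken without it, again a choice made after the data were seen. At least 3 UMIs of the 4 remaining genes were held by 148, 63 and 97 nuclei in WT, BMD and DMD, or 1.49%, 0.925% and 1.23%. The difference from WT was then -0.560 points (-0.887 to -0.223) in BMD and -0.256 points (-0.595 to 0.0905) in DMD. WT thus remained above BMD by more than counting error, whereas the interval against DMD held 0.

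Between genotypes, genes were compared by the log2 ratio of CPM, and a gene was counted as past 2-fold when CPM plus 50 differed at least 2-fold from WT and it had at least 20 UMIs in both libraries together. In BMD, 121 of 3189 genes were past 2-fold higher than in WT (3.79%) and 95 were past 2-fold lower (2.98%). This balance turned under several other choices, as with the top nucleus of each gene left out (51 higher and 132 lower). In DMD, 48 of 3174 genes were higher (1.51%) and 60 were lower (1.89%). The median log2 ratio over all counted genes was 0.0053 in BMD and -0.0095 in DMD. Both comparisons share the WT library, so the values of BMD and DMD set side by side below are not independent of each other.

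The Ly49 receptors were lower in both mutant libraries. Of 13 Ly49 and Klra genes in the files, 9 had a UMI in the members, and 8 of them, Ly49s6 included, had lower CPM than WT in both BMD and DMD. Both comparisons share WT, and the share of all genes lower in both is not given here. Only 5 of the 9 genes reached 20 UMIs in a mutant and WT together, and Ly49s6 among these 5 was used to choose the members. The other 4, Ly49s5, Ly49i4, Ly49s7 and Klra1, reached this minimum mainly through WT, so the number of them past 2-fold lower was largely set by it, and the levels are given instead. The calls under 9 other choices of members or counts share this limit, so they are a description and no support for the difference. Ly49s5 and Ly49i4 were past 2-fold lower in BMD in all 9, and Ly49i4 and the rule's gene Ly49s6 in DMD. Ly49s5 in DMD lay at the limit, and its call was lost under 8 of the 9, the removal of nuclei over 5% mitochondrial UMIs being the exception. In BMD the call of Ly49s6 was lost without the Clnk-only members, without nuclei over 5% mitochondrial UMIs, with at least 2 UMIs of the rule's genes and in the aggregate. That of Ly49s7 was lost without those mitochondria-rich nuclei, with no T cell UMI allowed, among nuclei with at least 1000 UMIs and with Ly49s6 left out of the rule. Ly49s5 had 869 CPM in WT (Poisson interval 730 to 1027), 64.1 (23.5 to 139) in BMD and 408 (292 to 556) in DMD. The log2 ratio of CPM was -3.76 (interval -5.23 to -2.60) in BMD and -1.09 (-1.64 to -0.57) in DMD. The 3 CPM intervals did not overlap, and BMD was the lowest. Ly49i4 had 296 CPM in WT, 53.4 in BMD and 71.5 in DMD, from 47, 5 and 7 UMIs. Here BMD and DMD did not differ beyond counting error, and both lay below WT. Ly49s6, which the rule used, had 1423, 619 and 541 CPM, and Klra1 had 120, 10.7 and 10.2 CPM from 19, 1 and 1 UMIs.

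Summed over the 12 family genes outside the rule, the level was 1594 CPM in WT (1403 to 1802), 214 (130.5 to 330) in BMD and 613 (467 to 788) in DMD. The log2 ratio over WT was -2.90 (-3.63 to -2.24) in BMD and -1.38 (-1.81 to -0.97) in DMD. A UMI of any of these 12 genes was held by 80 of 171 members in WT, 12 of 77 in BMD and 25 of 100 in DMD, or 46.8% (39.1% to 54.6%), 15.6% (8.32% to 25.6%) and 25.0% (16.9% to 34.7%). The lower level thus went with fewer nuclei in which the genes were seen. The corresponding share of endothelial-like nuclei, which should lack these receptors, was 1.12%, 0.576% and 0.998%. The members were of like depth in the 3 libraries, and after each nucleus was thinned to 500 UMIs, Ly49s5 was seen in 25.7% of members in WT (19.4% to 33.0%), 3.90% (0.811% to 10.97%) in BMD and 16% (9.43% to 24.7%) in DMD, against 36.3%, 5.19% and 19.0% before thinning.

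The difference kept its direction when members were chosen in other ways. With Ly49s6 left out of the rule, the log2 ratio of the 12 genes was -3.15 in BMD and -1.13 in DMD. It was -2.73 and -1.37 without the Clnk-only members and -2.69 and -1.55 without nuclei over 5% mitochondrial UMIs. With Ly49s6 counted as well, nuclei with a UMI of 2 or more of the family's genes numbered 68 in WT, 6 in BMD and 18 in DMD. The rule used Ly49s6, so this count was partly set by the choice of members and is a description. Whether the animals carried the same Ly49 genes and alleles was not tested, and that cannot be told apart from genotype with 1 library each.

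**Figure D4:**
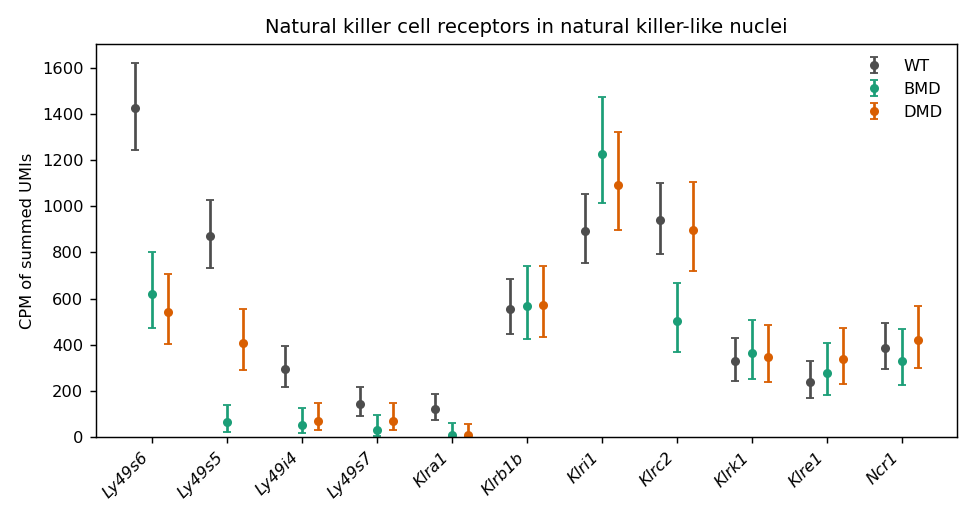
CPM of summed UMIs (linear axis from 0) of 11 receptor genes in the natural killer-like nuclei of the WT, BMD and DMD library, with bars for the 95% Poisson interval. The 5 Ly49 and Klra genes on the left are highest in WT, and the 3 libraries lie together for Klrb1b, at 554, 566 and 572 CPM.

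Klrb1b, which encodes the inhibitory NKR-P1B receptor, was level across the libraries. It had 554 CPM in WT (445 to 683), 566 (424 to 740) in BMD and 572 (432 to 742) in DMD. The log2 ratio was 0.03 (-0.49 to 0.54) in BMD and 0.04 (-0.47 to 0.54) in DMD. Both intervals held 0 and reached from -0.49 to 0.54, so changes within this range were not detectable at this depth. It was seen in 62 of 171, 28 of 77 and 38 of 100 members, or 36.3%, 36.4% and 38.0%. In WT, Klrb1b was seen in 30 of the 100 members with a Ly49 or Klra UMI and in 32 of the 71 without, or 30% (21.2% to 39.98%) and 45.1% (33.2% to 57.3%). In BMD the corresponding shares were 21.4% and 44.9%, and in DMD they were 48.5% and 32.8%. The share in members with a Ly49 or Klra UMI minus that in members without was -15.1 points (Newcombe interval -29.2 to -0.463) in WT, -23.5 points (-41.2 to -1.15) in BMD and 15.6 points (-4.28 to 34.8) in DMD. In this split Klrb1b was seen less often beside a Ly49 or Klra UMI in WT and BMD, by little more than counting error. The difference in DMD ran the other way and its interval held 0. The split counted Ly49s6, which the rule used, so it was partly set by the choice of members and no conclusion is drawn. A split on the genes outside the rule was not tested. Without the Clnk-only members the differences were -19.7, -35.3 and 17.7 points.

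Of the 16 receptor genes counted in each comparison, 6 were past 2-fold lower in BMD, where 2.98% of all genes were, and 3 in DMD, where 1.89% were, and 0 were higher in either. Ly49s6 among these was used to choose the members, and the other Ly49 genes and Klri2 passed the minimum mainly through WT. The counts of lower genes were thus largely set by the rule and the minimum, and are a description. The median log2 ratio of CPM plus 50 was -0.63 in BMD and 0.06 in DMD. After removal of nuclei over 5% mitochondrial UMIs, 2 of 14 counted receptor genes were past 2-fold lower in BMD, Ly49i4 and Ly49s5, and 1 was higher, with a median of -0.17, and in DMD 3 of 15 were lower, Ly49i4, Ly49s5 and Ly49s6. Outside the Ly49 genes, the 2 lower in BMD were Klrb1c and Klri2. Klrb1c, another NKR-P1 gene, had 346 CPM in WT, 139 in BMD and 276 in DMD. Klri2, of the same family as Klri1, had 170, 21.4 and 184 CPM, from 27, 2 and 18 UMIs. Klri2 was low in BMD alone. Klri1 itself was not lower in the mutants, and its log2 ratios were 0.46 (0.09 to 0.82) in BMD and 0.29 (-0.09 to 0.66) in DMD.

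Klrc2, a partner of CD94, had 938 CPM in WT (794 to 1102), 502 (369 to 668) in BMD and 898 (721 to 1107) in DMD. Its log2 ratio was -0.90 (-1.41 to -0.42) in BMD and -0.06 (-0.46 to 0.33) in DMD. Klrd1, which encodes CD94 and was used to choose the members, had 989, 609 and 1225 CPM. Klrk1, which encodes the activating receptor NKG2D, and Klre1, of the same gene complex, differed by less than counting error from WT, with 328, 363 and 347 CPM for Klrk1 and 239, 278 and 337 CPM for Klre1. Cd226, which encodes the adhesion receptor DNAM-1, had 277, 459 and 541 CPM, and its log2 ratios were 0.73 (0.09 to 1.37) and 0.97 (0.36 to 1.58). Without the Clnk-only members it had 151, 284 and 289 CPM. Cd244, a receptor of the SLAM family, had 762, 384 and 633 CPM.

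Cytotoxic genes leaned lower in BMD and higher in DMD, mostly by less than 2-fold. Of 8 counted genes of the granule list in BMD, 6 lay below 0 and 1 was past 2-fold lower, where 2.98% of all genes were. Of 9 in DMD, 7 lay above 0 and 0 were past 2-fold in either direction, or 1, Gzma, without the Clnk-only members. Over all genes 1.51% were higher and 1.89% lower in DMD, so a count of 0 was near those shares. Prf1 had log2 ratios of -0.53 (-1.02 to -0.05) in BMD and 0.38 (-0.01 to 0.77) in DMD. Without the Clnk-only members BMD was closer to WT, with 878 CPM of Prf1 in WT, 762 in BMD and 1270 in DMD, from 122, 51 and 101 UMIs. Gzma, which encodes granzyme A, had 202 CPM in WT (138 to 285), 214 (130.5 to 330) in BMD and 449 (326 to 603) in DMD, and its log2 ratios were 0.08 (-0.80 to 0.93) and 1.16 (0.47 to 1.86). DMD was the highest library for Gzma, and WT and BMD did not differ beyond counting error. Gzmk, which encodes granzyme K, had 441, 214 and 561 CPM, from 70, 20 and 55 UMIs. Gzmb, which encodes granzyme B, and Gzmc had 0 UMIs in every library, which allows up to 18.9 CPM in WT, 32.0 in BMD and 30.6 in DMD (3 counts per library). The 1 granule-list gene past 2-fold lower in BMD was Tnfsf10, which encodes the death ligand TRAIL, with 372, 117 and 255 CPM.

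Without the Clnk-only members the medians of the granule list moved from -0.44 to -0.22 in BMD and from 0.34 to 0.42 in DMD. After removal of nuclei over 5% mitochondrial UMIs they were -0.42 and -0.01, with 3 of 6 counted genes above 0 in DMD. The lean to the higher side in DMD was thus not seen without those nuclei, whereas 5 of 6 counted genes still lay below 0 in BMD. Among nuclei with at least 1000 UMIs, 4 of 4 counted genes were past 2-fold lower in BMD (Gzmk, Prf1, Rab27a and Tnfsf10), with a median of -1.30. In DMD 3 of 6 then lay above 0, with Gzma past 2-fold higher and Rab27a and Tnfsf10 lower. Over all genes, 107 were higher and 112 lower in BMD under this choice, and 62 and 68 in DMD. A UMI of the 6 dendritic cell genes was held by 14 of the 58 WT members kept by it, 13 of 28 in BMD and 9 of 33 in DMD. Clnk-only members held more UMIs per nucleus, with medians of 1310, 1288 and 1396 against 781.5, 880 and 800 in the others. Their part in the values under this choice was not tested.

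The chemokine gene Ccl5 was lower in both mutants. All 4 counted genes of the cytokine and chemokine list, Ccl5, Ccl4, Xcl1 and Csf1, lay below 0 in BMD and in DMD. Ccl5, which attracts T cells and monocytes, had 1997 CPM in WT (1783 to 2229), 1036 (840 to 1264) in BMD and 1450 (1221 to 1709) in DMD. Both mutants lay below the WT interval and overlapped each other, and the log2 ratio was -0.95 (-1.29 to -0.61) in BMD and -0.46 (-0.76 to -0.17) in DMD. Among nuclei with at least 1000 UMIs Ccl5 had log2 ratios of -1.95 and -1.12 and was past 2-fold lower in both mutants, and it was so in BMD with no T cell UMI allowed and with Ly49s6 left out of the rule. Csf1, a growth factor of macrophages, was past 2-fold lower in both, from 23, 3 and 3 UMIs in WT, BMD and DMD. Csf1 reached the minimum count through WT alone, so its call was largely set by that minimum and is a description. It was the 1 of 4 genes so called, where 2.98% of all genes were in BMD and 1.89% in DMD, and its call in BMD was lost with at least 2 UMIs of the rule's genes and it fell under the minimum count among nuclei with at least 1000 UMIs. Xcl1, which attracts cross-presenting dendritic cells, had 22, 5 and 11 UMIs, and Ccl4 had 23, 10 and 7, and the intervals of their log2 ratios held 0. Ifng, which encodes interferon gamma, had 0, 1 and 0 UMIs, and Tnf had 0 in each library. Transcripts of these inflammatory cytokines were thus at or under the limit of 3 counts.

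**Figure D5:**
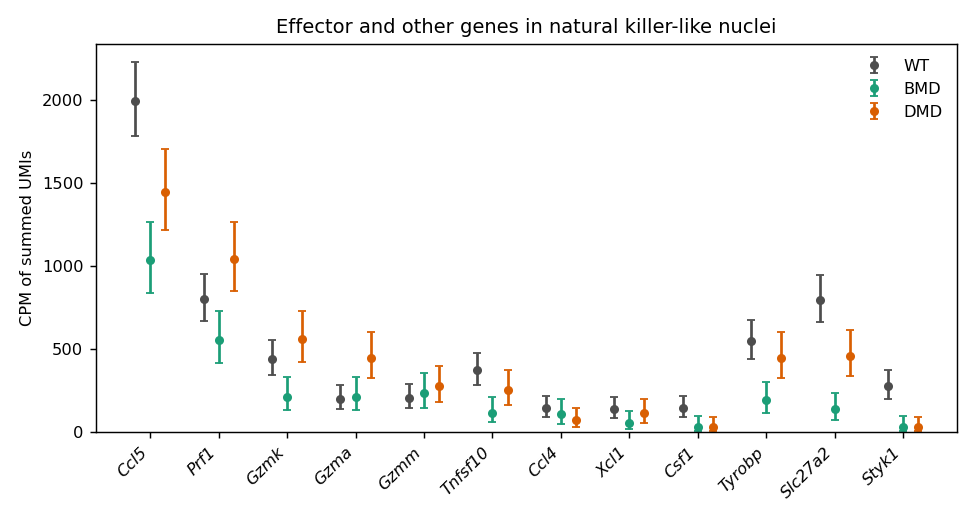
CPM of summed UMIs (linear axis from 0) of 12 effector, chemokine and other genes in the natural killer-like nuclei of the WT, BMD and DMD library, with bars for the 95% Poisson interval. Ccl5, Slc27a2 and Styk1 are highest in WT, and Gzma is highest in DMD, at 449 CPM against 202 and 214 CPM.

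Of 11 counted cytokine receptor genes in BMD and 9 in DMD, 0 were past 2-fold in either direction. With 3.79% and 2.98% of all genes higher and lower in BMD and 1.51% and 1.89% in DMD, a count of 0 among so few genes was near the share over all genes. Il2rb, the chain shared by the interleukin 2 and 15 receptors, had 907 CPM in WT (765 to 1068), 513 (378 to 680) in BMD and 653 (503 to 834) in DMD, and its log2 ratios were -0.82 (-1.33 to -0.34) and -0.47 (-0.92 to -0.04). Both log2 ratios lay below 0 by more than counting error. Il12rb2, a chain of the interleukin 12 receptor, had 460, 374 and 449 CPM and did not differ beyond counting error. Ifngr1, a chain of the interferon gamma receptor, had 195, 214 and 368 CPM, with a log2 ratio of 0.91 in DMD (0.18 to 1.65).

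Signalling genes lay mostly below WT. Of 24 counted genes 19 lay below 0 in BMD, and of 23 counted 18 did in DMD, but 1 was past 2-fold lower in each, Tyrobp in BMD and Prkcq, a protein kinase C of lymphocytes, in DMD, near the 2.98% and 1.89% of all genes. Once nuclei over 5% mitochondrial UMIs were removed, 0 of 21 counted genes were past 2-fold in either. With no T cell UMI allowed, 10 of 19 counted genes lay below 0 in DMD and 9 above, so the lean was not seen there. Without the Clnk-only members 16 of 23 counted genes lay below 0 in each mutant. The median of the list then moved from -0.28 to -0.07 in BMD and from -0.19 to -0.07 in DMD, so the lean was small. Tyrobp and Vav3 were past 2-fold lower in BMD under this choice. Tyrobp, which encodes the adaptor DAP12 that pairs with activating Ly49 receptors, had 548 CPM in WT (439 to 676), 192 (114 to 304) in BMD and 449 (326 to 603) in DMD. BMD was low, and WT and DMD overlapped. After thinning, Tyrobp was seen in 22.2%, 7.79% and 21.0% of members, against 35.1%, 16.9% and 34.0% before. Fcer1g, another adaptor chain, had 258, 214 and 194 CPM. Lcp2, which encodes the adaptor SLP-76, had 472, 470 and 470 CPM. Vav3, an exchange factor, had 2853, 1559 and 1940 CPM, and its log2 ratios were -0.87 (-1.15 to -0.60) and -0.56 (-0.81 to -0.31).

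Among transcription factors, 3 of 15 counted genes were past 2-fold higher and 1 lower in BMD, whereas 0 of 15 were in DMD. Over all genes 3.79% were higher and 2.98% lower in BMD, and 1.51% and 1.89% in DMD, so 1 lower gene in BMD and 0 in DMD were near those shares. The higher ones were Bcl11b, Zbtb16 and Irf8, and the lower one was Ikzf2, whose call was lost without the Clnk-only members and without nuclei over 5% mitochondrial UMIs (0 of 14 in each). Bcl11b, a regulator of T cell and mature natural killer cell genes, had 75.6 CPM in WT, 310 in BMD and 123 in DMD, from 12, 29 and 12 UMIs, and 1125, 935 and 940 CPM in T cell-like nuclei. With no T cell UMI allowed, the calls of Bcl11b and Zbtb16 in BMD were both lost, and that of Bcl11b was also lost among nuclei with at least 1000 UMIs. Irf8, a regulator of dendritic cells and monocytes, had 277, 630 and 439 CPM, but 158, 89.7 and 163 CPM without the Clnk-only members. Its higher level in BMD thus lay in those nuclei, and without them Zeb2 took its place among the 3 genes past 2-fold higher. Zeb2, a regulator of natural killer cell maturation, had 901 CPM in WT, 1773 in BMD and 1286 in DMD. Over all members its log2 ratios were 0.98 (0.65 to 1.31) in BMD and 0.51 (0.16 to 0.87) in DMD. Without the Clnk-only members it had 1014, 2451 and 1396 CPM. Runx3, which acts with Tbx21, was level at 334, 342 and 357 CPM. Ets1, required for natural killer cell development, had 1946, 1015 and 1633 CPM.

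Of 9 counted genes of trafficking and adhesion, 1 was past 2-fold higher in BMD, the integrin gene Itga4, and 1 in DMD, Itgae, which encodes the epithelial-binding integrin CD103. These counts were near the 3.79% and 1.51% of all genes that were higher, and the calls did not hold under several other choices. The Itga4 call was lost without nuclei over 5% mitochondrial UMIs, with no T cell UMI allowed, among nuclei with at least 1000 UMIs and with Ly49s6 left out of the rule. The Itgae call in DMD was lost with no T cell UMI allowed and among nuclei with at least 1000 UMIs. Itga1, an integrin of tissue-resident natural killer cells, had 624, 555 and 725 CPM, and Itga2, an integrin of circulating ones, had 296, 139 and 255 CPM. The egress receptor gene S1pr5 had 4, 3 and 0 UMIs and Cxcr6 had 0 in each library. Itgae had 63.0, 171 and 214 CPM, from 10, 16 and 21 UMIs. Without the Clnk-only members, Itga4 and Itgb2 were past 2-fold higher in BMD and 0 genes of this list in DMD.

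Styk1 was among the 8 genes lowest against WT in both mutants. In BMD the 8 were Ly49s5, Lpar3, Slc27a2, Styk1, Fam160a2, Kcnma1, Rpl14 and Dnajc6. In DMD they were Styk1, Tnni3k, Chsy3, Ly49i4, Klra1, Eif4b, Arpc4 and 1 gene without a symbol. All were picked by their ratio to WT. Several, such as Styk1, Lpar3, Fam160a2, Kcnma1, Chsy3, Klra1 and Arpc4, also reached the minimum count mainly through WT. Their low ratios were thus largely set by these choices, and the values below are a description. Styk1, which encodes a kinase-like membrane protein, had 277 CPM in WT (201.4 to 372), 32.0 (6.61 to 93.6) in BMD and 30.6 (6.32 to 89.5) in DMD. It was seen in 31 of 171 members in WT, 2 of 77 in BMD and 3 of 100 in DMD. Slc27a2, which encodes a fatty acid transporter and acyl-CoA synthetase, had 794 CPM in WT (661 to 945), 139 (73.9 to 237) in BMD and 459 (335 to 615) in DMD, and its log2 ratios were -2.52 (-3.46 to -1.69) and -0.79 (-1.31 to -0.29). Its order was that of Ly49s5, and thinning left it, with Slc27a2 seen in 26.9%, 9.09% and 21.0% of members and 40.9%, 14.3% and 36.0% before. Lpar3, a receptor of lysophosphatidic acid, had 36, 0 and 17 UMIs in WT, BMD and DMD. With 3 counts over the members as the limit it was at least 7.08-fold lower in BMD, a bound for a gene picked by this ratio. Outside the members these genes were near absent, with 1.18, 0.470 and 0.366 CPM for Styk1 and 5.24, 0.941 and 5.34 CPM for Slc27a2 over all other nuclei.

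Tnni3k, a kinase best known from cardiomyocytes, was among the lowest genes in DMD. It had 1430 CPM in WT members, 395 in BMD and 419 in DMD, and its log2 ratios were -1.86 (-2.40 to -1.35) and -1.77 (-2.29 to -1.29). In all other nuclei it had 1435, 1681 and 1035 CPM, and in barcodes with at most 50 UMIs, which hold mainly free RNA, 1084, 1079 and 591 CPM. It was seen in 90 of 171 WT members, and T cell-like nuclei had 437, 312 and 161 CPM. The WT members thus stood above T cell-like nuclei of the same library and at the level of the other nuclei. The part of cardiomyocyte RNA in this difference was not tested, and the cardiomyocyte list itself was lowest in WT members.

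The highest genes, in contrast, often came from few nuclei. In BMD the 8 highest were Bicd1, Adamts12, Maoa, Trhde, Zfp366, Akap12, Filip1l and Mob3b. A single nucleus held 28 of the 29 UMIs of Bicd1, 26 of the 26 of Trhde, 17 of the 19 of Akap12, 16 of the 24 of Maoa, 34 of the 55 of Filip1l, 17 of the 31 of Zfp366 and 13 of the 25 of Adamts12. Of the 8 genes only Mob3b, with 5 of 25, had less than most of its UMIs in 1 nucleus. Maoa and Filip1l were also higher in the other nuclei of BMD, by a log2 ratio of CPM plus 50 of 1.34 and 1.06. In DMD the 8 highest were Pak7, Rerg, Ebf1, Samhd1, Naaa, Ccdc88a, Dok6 and S100a9. Several of the highest genes lay in the Clnk-only members, which held 31 of the 31 UMIs of Zfp366 in BMD, a transcription factor of dendritic cells, and in DMD 31 of the 31 UMIs of Pak7, 20 of the 23 of Naaa and 20 of the 21 of Dok6. Ebf1, the B cell regulator also found in mural cells, had 56 UMIs in 17 members in DMD and 21 UMIs in 15 members in WT. S100a9, a neutrophil gene, had 19 UMIs in 17 members in DMD, 5 UMIs in WT, and a log2 ratio of CPM plus 50 of 2.29 in the other nuclei against 1.58 in the members.

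Ribosomal protein genes were lower in the mutant members. Of 39 counted, 8 were past 2-fold lower in BMD and 6 in DMD, where 2.98% and 1.89% of all genes were. Their sum was 11816 CPM in WT, 6739 in BMD and 7800 in DMD. The other nuclei had 5748, 3833 and 5589 CPM. T cell-like nuclei had 15583, 8647 and 13643 CPM, and the barcodes with mainly free RNA had 17314, 8868 and 15310 CPM. In BMD each of these 4 sums was below that of WT. In DMD they were closer to WT outside the members than within them, and that difference was not tested. Mitochondrial UMIs made up 4.47%, 2.27% and 4.55% of the members' UMIs, and 1.73%, 1.83% and 2.38% in the other nuclei. The ribosomal sum followed the order of the share of members over 5% mitochondrial UMIs, highest in WT and lowest in BMD, whose part in the ribosomal difference was not tested. Dividing nuclei, with at least 3 UMIs of Mki67, Top2a, Cenpf, Aspm, Kif11, Bub1 and Cenpe, were rare, at 5 of 171 members in WT, 3 of 77 in BMD and 4 of 100 in DMD, or 2.92% (0.956% to 6.69%), 3.90% (0.811% to 10.97%) and 4% (1.10% to 9.93%). Of these, 2, 2 and 0 were Clnk-only members. The shares did not differ beyond counting error. The list of cell division genes summed to 290, 1036 and 480 CPM. Of its 3 counted genes, Top2a and Cenpf were past 2-fold higher in BMD, where 3.79% of all genes were. Both reached the minimum count mainly through BMD, where they were high, so their calls are a description. In BMD the 97 UMIs of the list lay in 4 members, and 49 of these UMIs in Clnk-only members. In T cell-like nuclei the counts of dividing nuclei were 2 of 69, 3 of 78 and 0 of 71.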

How the data were processed

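The authors deposited UMI counts per gene and barcode, made with Cell Ranger on build rn6 per the submitters' processing notes. The file headers name version 6.0.1 for the aggregate and 4 for BMD and DMD. The methods of the study name a 10x 3′ kit v3.1, whereas its results name a different 10x chemistry. The WT counts came from the deposited aggregate, in which depth was equalised, so that BMD kept 76.1% and DMD 92.9% of their UMIs there. Its barcodes have 3 suffixes, of which 2 held the barcodes of the BMD and DMD files, and the remaining one was taken as WT because the aggregate is listed for the WT sample. BMD and DMD counts came from their own files. Nuclei were the deepest barcodes of each library, as many as the study kept. Members, lists and alternatives were chosen with earlier results of these data known. UMIs were summed over members and given as CPM. The log2 ratios of single genes are of CPM without a pseudocount unless CPM plus 50 is stated. Intervals were Clopper-Pearson for shares and for ratios, Newcombe for differences and exact Poisson for counts. Named genes were list genes, the 15 leading genes and the 8 highest and 8 lowest per comparison. Genes without a symbol were counted only. Scrublet ran in scanpy 1.11.5, and TMM factors (0.980, 1.02 and 0.998) came from edgeR 4.0.16. Python 3.11.15, scipy 1.17.1 and pandas 2.3.3 were used. The code was tested on simulated data. Alternatives changed the rule, depth, doublet and mitochondrial limits, pseudocount and minimum count.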

Additional observations from a re-analysis of the deposited data

How the results depend on the processing

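No paired analysis was possible because each genotype has 1 library and no result comes from a test, and leaving out a replicate was not possible for the same reason. Of the shares and counts of genes under the alternatives, 67 values stayed close to the reported ones, 27 moved and 0 reversed, and of the values of single named genes 940 stayed close, 10 moved and 10 reversed. The share was 2.0% in WT with at least 2 UMIs of the rule's genes. With no T cell UMI allowed WT, BMD and DMD had shares of 1.03%, 0.764% and 0.824%, with at least 1000 UMIs per nucleus 0.940%, 0.563% and 0.658%, and thinned to 500 UMIs 1.20%, 0.587% and 0.976%. The interval of the difference from WT held 0 for both mutants with no T cell UMI, and for DMD with at least 1000 UMIs. Without nuclei over 5% mitochondrial UMIs the WT share was 1.25%. A pseudocount of 20 gave 177 higher and 178 lower genes in BMD and 107 higher and 113 lower in DMD. One of 100 gave 69 higher and 43 lower in BMD and 23 and 12 in DMD. A minimum of 40 UMIs gave 46 higher and 48 lower in BMD and 15 and 22 in DMD, and one of 1 UMI gave 266 and 169 in BMD and 145 and 128 in DMD. With the top nucleus of each gene left out, 51 genes were higher and 132 lower in BMD, so the balance turned from the reported 121 and 95, as it did in the aggregate (97 and 138), with no T cell UMI (82 and 96), with at least 1000 UMIs (107 and 112) and without the Clnk-only members (93 and 121). It also turned, narrowly, with a pseudocount of 20 and with a minimum of 40 UMIs, and was even with TMM factors (108 and 108). On the log2 scale of CPM plus 50, Trhde in BMD reversed to -0.28 with no T cell UMI, -0.34 without Scrublet doublets, -0.46 in the aggregate and -0.32 without its top nucleus. Bicd1 reversed to -0.28 in DMD with no T cell UMI and to -0.17 in BMD in the aggregate. Filip1l reversed to -0.13 in DMD without the Clnk-only members, Ebf1 to -0.20 and Rerg to -0.66 in BMD with Ly49s6 left out of the rule, and S100a9 to -0.017 in DMD after subtraction of free RNA, put at 7.92%, 10.2% and 11.4% of UMIs. Apart from the top nucleus and the construction of the counts, the cause was not tested. Leaving out the Clnk-only members, the top nucleus or Ly49s6 was chosen after seeing the data. Few nuclei and few UMIs limit every gene value, above all in BMD.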

Other observations

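Barcodes below the cutoff for nuclei, with at least 100 UMIs, were also searched with the same rule. It was met by 41 of 3061 such barcodes in WT (1.34%, Clopper-Pearson interval 0.963% to 1.81%), 11 of 17852 in BMD (0.0616%, 0.0308% to 0.110%) and 28 of 13051 in DMD (0.215%, 0.143% to 0.310%). The 10 natural killer cell genes outside the rule had 8933, 5533 and 12078 CPM in them, against 382, 224 and 365 CPM in the shallow barcodes that did not meet it. The members had 7445, 5521 and 7483 CPM, so the shallow barcodes were close to the members in BMD and above them in WT and DMD. They were not counted as nuclei, and they would add most to WT and DMD. The shares above were taken of 3061, 17852 and 13051 barcodes, numbers that differ widely between libraries, so these shares are not comparable between libraries.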
